A study of Homo sapiens with 6 samples.

Results

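SCC4 is an established human line from a squamous carcinoma of the tongue, and its RNA was compared between cells grown attached to the dish (parental) and cells obtained from them by suspension culture (sphere), with 3 libraries of each. The submitters describe the sphere cells as isolated cancer stem cells. Both groups are the same line with no added gene, agent or time label, and the labels do not say whether libraries came from separate cultures, so the spread between libraries may be technical. The genes described are 8 of the 16536 genes in the deposited table: SREBF1, SREBF2, SCAP and INSIG1 of the sterol-sensing system, the sterol carrier gene STARD4, and the LXR target genes ABCA1, ABCG1 and MYLIP. They were found by their symbols, and they had been selected on earlier values of this same parental and sphere contrast, so their differences between the groups are a description and carry no test. All 8 members were at 1 unit or more in all 6 libraries, and so passed the filter on low values that left 15034 genes to test.

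Cells sense cholesterol in the membrane of the endoplasmic reticulum. SREBP precursors, made from SREBF1 and SREBF2, are held there by SCAP and the INSIG proteins while sterol is plentiful. When sterol falls, SCAP carries them to the Golgi, where proteases release a transcription factor that drives sterol and fatty acid synthesis, lipoprotein uptake and INSIG1 itself. LXR works in the opposite direction: oxysterols and desmosterol activate it with its partner RXR, and it drives the export pumps ABCA1 and ABCG1, the ligase MYLIP that marks lipoprotein receptors for breakdown, and SREBF1. In keratinocytes cholesterol is also a building material of the epidermal barrier.

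In sphere cells the sensing genes INSIG1, SREBF1 and SREBF2 and the carrier gene STARD4 were higher in every library than in any parental library, by 6.44-, 3.64-, 2.83- and 3.40-fold in ratio of group means. The export pumps ABCG1 and ABCA1 were lower, by 11.0- and 2.08-fold. MYLIP, grouped with them as an LXR target, was not lower but 1.84-fold higher. The SCAP values of the groups overlapped. In bulk RNA a lower share of cells with a transcript and less of it per cell cannot be told apart.

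Values are normalised units on a scale that the authors named TPM, a name for values corrected for gene length and library total. The column totals show that they were not at a common library total, and a correction for gene length was not checked. Ratios and ranks between different genes may therefore hold their lengths, and are given for their change between the groups. Column totals were 885258 to 1007523 units in parental and 1007357 to 1134102 units in sphere libraries. Low values lie close to whole multiples of a step of 0.885 to 1.134 units, the library's total divided by 1000000. Read depth is unknown. All 12 squamous epithelial markers checked, KRT5, KRT14 and TP63 among them, reached at least 5 units, and their sum was 8293 to 8978 units in parental and 28210 to 29780 units in sphere libraries. KRT5 and KRT14 make up most of that difference, with means of 2262 and 1490 units in parental and 11779 and 10484 units in sphere cells. Of the 12 markers 9 were called higher and 2 lower, COL17A1 and ITGB4, with log2 fold changes of -0.60 and -0.23. Parental replicates 2 and 3 and sphere replicate 2 held 1239.5 to 1905.4 and 914.4 units of globin transcripts, against at most 0.9 units in the others, so values without these 3 libraries are given where they bear on a result.

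Promoter windows are shown first for SREBF2 and ABCA1, in which the sterol element core or the LXR repeat was found, and for INSIG1 and STARD4 as examples of SREBP targets. Each window runs from 250 bases before to 50 bases after the gene start that RefSeq gives on GRCh38.p14, and RefSeq windows were matched for 7 of the 8 members. Capitals mark matches, on either strand, to the sterol regulatory element core TCACNCCAC, to a lax form of the LXR direct repeat (GGTNA, then 5 free bases, then GGTNA), to the NF-Y box CCAAT, to the SP1 box GGGCGG and to the E-box CACGTG. SREBF2 (chr22:41832855-41833154, plus strand), ABCA1 (chr9:104928106-104928405, minus strand), INSIG1 (chr7:155297628-155297927, plus strand) and STARD4 (chr5:111512486-111512785, minus strand) read as follows.
SREBF2: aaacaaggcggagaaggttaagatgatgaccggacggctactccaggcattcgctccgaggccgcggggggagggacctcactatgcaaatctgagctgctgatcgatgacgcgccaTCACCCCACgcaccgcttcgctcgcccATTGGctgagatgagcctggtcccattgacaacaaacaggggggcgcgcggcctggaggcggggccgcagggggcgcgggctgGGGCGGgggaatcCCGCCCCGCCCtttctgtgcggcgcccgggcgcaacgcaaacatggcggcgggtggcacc
ABCA1: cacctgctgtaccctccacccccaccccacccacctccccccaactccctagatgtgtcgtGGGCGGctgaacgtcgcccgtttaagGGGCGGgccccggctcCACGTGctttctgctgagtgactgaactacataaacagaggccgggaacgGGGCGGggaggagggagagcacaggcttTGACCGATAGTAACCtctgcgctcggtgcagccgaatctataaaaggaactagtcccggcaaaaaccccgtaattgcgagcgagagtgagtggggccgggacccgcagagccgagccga
INSIG1: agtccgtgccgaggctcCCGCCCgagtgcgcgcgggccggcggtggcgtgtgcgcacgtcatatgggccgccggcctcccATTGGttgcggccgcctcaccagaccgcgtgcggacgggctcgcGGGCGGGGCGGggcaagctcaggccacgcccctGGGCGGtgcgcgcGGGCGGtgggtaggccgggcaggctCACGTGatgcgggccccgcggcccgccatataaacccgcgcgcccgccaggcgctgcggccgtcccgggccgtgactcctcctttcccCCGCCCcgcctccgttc
STARD4: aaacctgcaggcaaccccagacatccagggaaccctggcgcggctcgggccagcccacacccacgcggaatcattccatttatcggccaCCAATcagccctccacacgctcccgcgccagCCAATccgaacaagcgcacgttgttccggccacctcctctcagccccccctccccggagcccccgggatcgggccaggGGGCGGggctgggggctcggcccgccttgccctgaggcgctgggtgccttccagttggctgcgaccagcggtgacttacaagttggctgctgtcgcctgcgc

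The sterol regulatory element core was found in the SREBF2 window, at bases -133 to -125 from the start, with an NF-Y box at -106 to -102. Of 35116 RefSeq windows of this length, 1.13% hold that core. The LXR repeat was found in the ABCA1 window, at -69 to -55 on the opposite strand, against 0.626% of all windows. ABCA1 also held an E-box and 3 SP1 boxes. NF-Y boxes, bound by a factor known to act with SREBP, were found in SREBF2, INSIG1, STARD4 and MYLIP, with 2 in STARD4 and 2 in MYLIP, against 34.6% of all windows. SP1 boxes were in all 7 windows (45% of all windows) and E-boxes in SCAP, INSIG1 and ABCA1 (7.26%). The windows of 17 of the 22 sterol synthesis genes were matched, and 12 of them held an NF-Y box and 0 the core. A match is a string of letters, not a shown binding site, and none of these windows was assayed here.

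**Figure D1:**
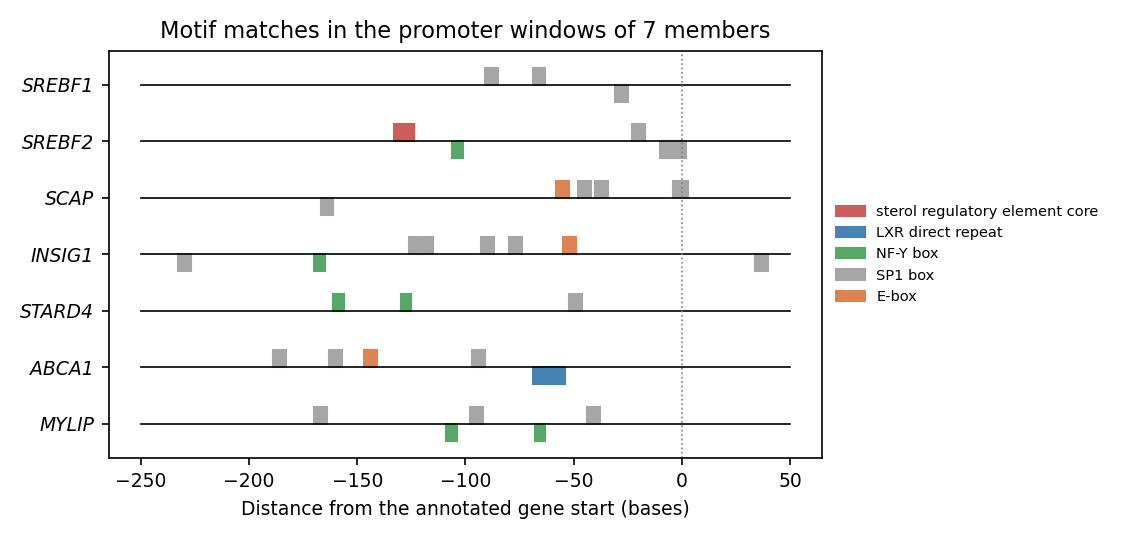
Positions of motif matches in the promoter windows of 7 members, as distance in bases from the annotated gene start (dotted line). Boxes above a line are on the gene's own strand and boxes below it on the other. The sterol regulatory element core is in SREBF2 only and the LXR repeat in ABCA1 only, while SP1 boxes are in all 7.

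Both SREBP genes also host a microRNA in an intron, MIR33B in SREBF1 and MIR33A in SREBF2, whose products are known to act on the ABCA1 messenger RNA. The mature sequences from RefSeq are shown because they share a seed, bases 2 to 8, given in capitals.
hsa-miR-33a-5p: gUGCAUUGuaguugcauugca
hsa-miR-33b-5p: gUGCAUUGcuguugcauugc
The letters that pair with this seed occur 4 times in the longest annotated 3′ UTR of ABCA1 (GENCODE 29), 3 of them within 30 bases, the first and second overlapping.
ABCA1 UTR bases 131 to 160: tattCAATGCAATGCAattCAATGCAatga
ABCA1 UTR around base 1475: tttaattgcaaCAATGCAaaagccaa
Capitals mark the letters that pair with the seed. SCAP held 1 such match and the other 6 members 0. Of 19113 genes with an annotated 3′ UTR, 8.43% held at least 1 match and 0.178% at least 3. The microRNAs themselves were not analysed here, and whether they bear on ABCA1 was not tested.

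Among the sensors, INSIG1 (ENSG00000186480), the retention protein whose gene is itself an SREBP target, differed most. It was at 60.4, 52.4 and 49.1 units in parental replicates 1 to 3 and at 363, 337 and 343 units in sphere replicates 1 to 3. All sphere libraries lay far above all parental libraries, with means of 54.0 ± 5.83 and 348 ± 13.3 units (SD, n = 3 each) and a log2 fold change of 2.67. Fold changes are differences of group means of log2(value + 1), sphere minus parental. INSIG1 moved from the 82.4th to the 97.8th percentile of all genes by mean level, and from the third to the first place among the 8 members.

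SREBF1 (ENSG00000072310), whose product favours fatty acid genes, was at 58.5, 58.5 and 52.9 units in parental and 207, 202 and 210 units in sphere libraries. SREBF2 (ENSG00000198911), whose product favours cholesterol genes, was at 57.6, 59.5 and 51.9 units and at 155, 161 and 162 units. The groups did not overlap for either gene, and the log2 fold changes were 1.85 and 1.49. In parental cells the ratio of SREBF1 to SREBF2 was 1.016, 0.983 and 1.018, and in sphere cells 1.333, 1.254 and 1.292. The ratio was thus higher in every sphere library than in any parental one. Because gene length may enter such a ratio, values near 1 do not show equal levels of the pair in attached cells. The table holds 1 value per gene, so the SREBF1 isoforms cannot be told apart.

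SCAP (ENSG00000114650), the escort that carries SREBP precursors to the Golgi, was at 14.1, 15.1 and 15.1 units in parental and 15.5, 15.9 and 14.1 units in sphere libraries. The groups overlapped, and the log2 fold change was 0.03, -0.12 when every library was brought to the same total and -0.01 after quantile normalisation. The ratio of INSIG1 to SCAP values was 3.25 to 4.27 in parental libraries and 21.3 to 24.3 in sphere libraries.

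STARD4 (ENSG00000164211), a soluble carrier that moves cholesterol between membranes and a known SREBP target, was at 40.0, 42.3 and 27.3 units in parental and 125, 118 and 129 units in sphere libraries. Its log2 fold change was 1.76. Parental replicate 3 was the lowest library, and the coefficient of variation was 22.2% in parental against 4.42% in sphere cells. Without that replicate the log2 fold change was 1.57.

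ABCG1 (ENSG00000160179), the pump that passes cholesterol to high-density lipoprotein, was at 16.9, 16.1 and 13.2 units in parental libraries. In sphere libraries it was at 1.04, 1.16 and 2.015 units, that is, at 1, 1 and 2 steps. Its log2 fold change of -2.78 lay at the 0.113th percentile of all tested genes. Because the sphere level is so near a single step, the ratio of 11.0 is imprecise: if values were rounded to the nearest step, it could lie between 7.72 and 18.1. With pseudocounts of 0.1 and 5 the log2 value was -3.41 and -1.67.

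ABCA1 (ENSG00000165029), the pump that loads cholesterol onto lipid-poor apolipoprotein, was low in both groups. It stood at 4.42, 5.04 and 3.76 units in parental and 2.07, 2.27 and 2.02 units in sphere libraries. All sphere libraries were below all parental ones, and the log2 fold change was -0.79, or -1.01 with a pseudocount of 0.1 and -0.40 with 5. These are 4 to 5 steps against 2, so rounding alone allows a ratio of group means between 1.49 and 3.07. The ratio of ABCA1 to ABCG1 values was 0.262 to 0.312 in parental libraries and 1.001 to 1.988 in sphere libraries.

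MYLIP (ENSG00000007944), a ubiquitin ligase, was at 23.8, 24.2 and 31.3 units in parental and 48.6, 49.9 and 47.4 units in sphere libraries. Its lowest sphere library lay above its highest parental library, and the log2 fold change was 0.87. Its direction differed from that of the export pumps. Its product lowers lipoprotein receptor protein and moves no sterol itself.

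**Figure D2:**
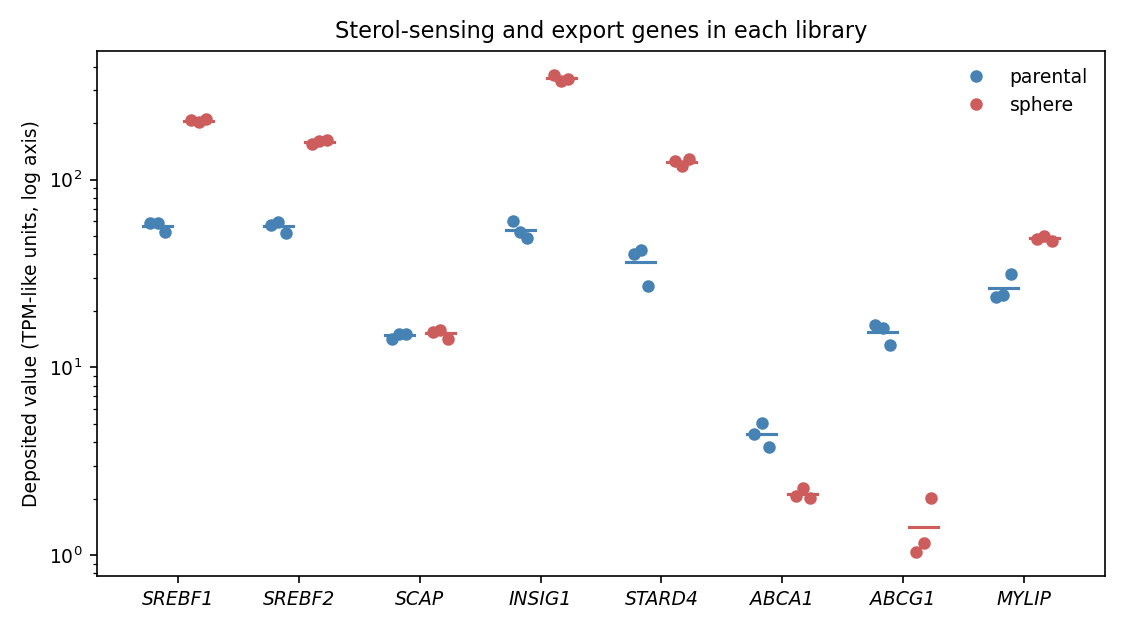
Deposited value of each of the 8 members (horizontal axis) in each library, in TPM-like units on a log axis. Points are libraries and lines are group means (n = 3 each). Sphere points lie above parental points for SREBF1, SREBF2, INSIG1, STARD4 and MYLIP, below them for ABCA1 and ABCG1, and overlap them for SCAP.

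Of the 8 members, limma called 5 higher and 2 lower at an adjusted p below 0.05, with SCAP the exception. In the same fit 7315 of 15034 genes were called, 48.7%, with 25.8% higher and 22.9% lower. The same 5 and 2 members had groups that did not overlap, as had 37.6% of all tested genes with sphere above and 27.5% with sphere below. Since the members were chosen on this contrast, these counts describe them and support nothing further. Calls are frequent here and their split depends on scaling: 53.0% of called genes were higher as deposited and 37.7% with all libraries at the same total, while the median over all tested genes went from a log2 value of 0.04 to -0.10. Relative to the median of 0.04, the members lay at 2.62 (INSIG1), 1.80 (SREBF1), 1.72 (STARD4), 1.44 (SREBF2), 0.82 (MYLIP), -0.01 (SCAP), -0.83 (ABCA1) and -2.83 (ABCG1). Without the 3 libraries with globin transcripts the log2 fold changes of the 7 called members were between 0.98 and 2.53 for the 5 that were higher, and -0.83 and -2.85 for ABCA1 and ABCG1.

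**Figure D3:**
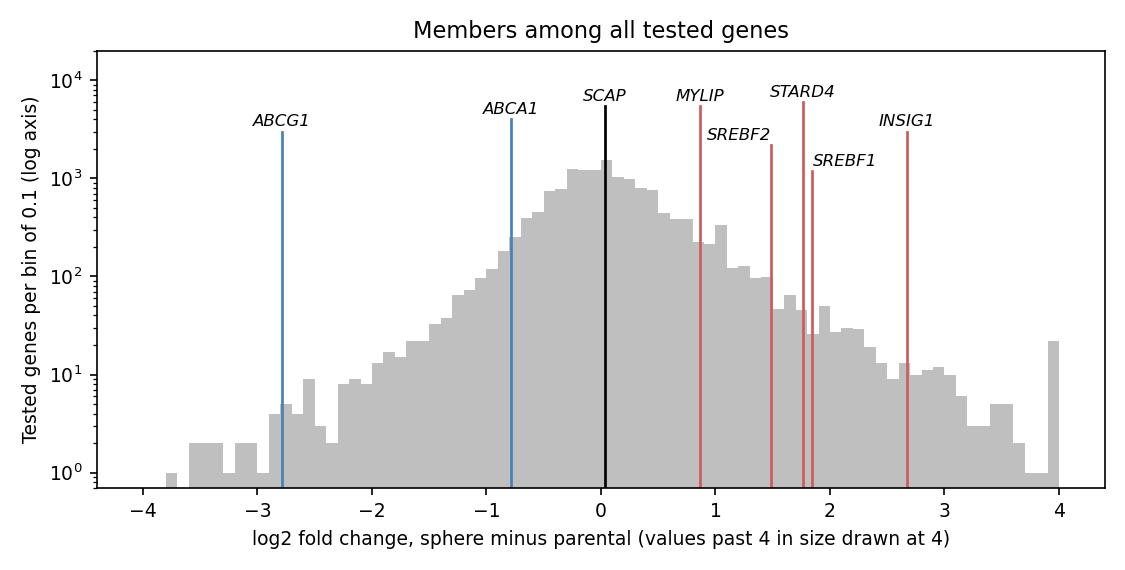
Number of tested genes (log axis) by log2 fold change, sphere minus parental, in bins of 0.1, with the 8 members as lines. INSIG1 at 2.67 and ABCG1 at -2.78 lie in the tails, and SCAP at 0.03 is close to the median over all tested genes, 0.04.

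By the rule for likeness, the root mean square difference between log2 profiles over the 6 libraries, the genes nearest to INSIG1 among 10287 were EXOC3L4 (0.030), LSS (0.0397) and MSMO1 (0.0507). LSS and MSMO1 encode enzymes of sterol synthesis. EXOC3L4 went from 2.19 to 19.0 units in group means. Nearest to ABCA1 were PYROXD1 (0.0491), SAMD12 (0.0518) and CCN6 (0.0569), with parental means of 9.44, 11.0 and 17.9 units and sphere means of 5.29, 6.35 and 9.87 units. The 6 libraries form 2 groups, so most of each profile is the difference between the groups.

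The rest of the sensing machinery moved little. Of 16 genes of SREBP control, 4 rose and 6 fell (3 and 6 with all libraries at the same total). Among all tested genes 25.8% rose and 22.9% fell. The median log2 fold change of the list was -0.05, against 0.04 over all tested genes. The members supplied 3 of the 4 rises. Of the other 12 genes only ERLIN1, which binds SREBP and INSIG complexes, rose, by a log2 value of 0.35. Its call ended with all libraries at the same total. INSIG2, the paralog of INSIG1 that is not under SREBP control, stood at 29.3 ± 1.63 units in parental and 31.3 ± 1.73 units in sphere cells, a difference that was not called (limma adjusted p = 0.266). The proteases that release SREBP in the Golgi, MBTPS1 and MBTPS2, fell slightly, with log2 fold changes of -0.18 and -0.14 (limma adjusted p = 0.0112 and 0.0443). The MBTPS2 call ended in 10 of 17 alternatives. PAQR3, a Golgi anchor of SCAP named as 1 of the 3 largest falls of the list, had a log2 fold change of -0.35. Without the 3 libraries with globin transcripts, which leaves 1 parental library, 5 rose and 1 fell.

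Among genes of lipoprotein uptake, SCARB1 rose and VLDLR fell, and those of sterol movement inside the cell also went both ways. Of 20 tested genes of uptake and transport, 10 rose, STARD4 among them, and 4 fell (9 and 6 with all libraries at the same total, 11 and 2 without the 3 globin-holding libraries), and the median log2 fold change was 0.39. Among all tested genes 25.8% rose and 22.9% fell. SCARB1, the receptor for high-density lipoprotein, rose from 12.9 ± 1.14 to 41.3 ± 2.94 units (limma adjusted p = 4.63e-05). The lysosomal sterol proteins NPC1 and NPC2 differed in direction. NPC1 fell from 42.8 ± 0.480 to 31.3 ± 0.830 units and NPC2 rose from 212 ± 6.80 to 277 ± 14.9 units (limma adjusted p = 0.000306 and 0.00181). The NPC2 call ended with all libraries at the same total, while the NPC1 call ended in 0 of 17 alternatives. OSBP, a sterol exchanger at the Golgi, and VLDLR, a lipoprotein receptor, fell, each with a log2 fold change of -0.44. SOAT1, which stores cholesterol as ester, stood at 29.2 ± 0.962 and 28.8 ± 1.91 units and was not called (limma adjusted p = 0.797). STARD3, a late endosomal sterol carrier, was at 28.9, 61.5 and 35.8 units in parental and 23.8, 25.0 and 23.2 units in sphere libraries and was not called either (limma adjusted p = 0.0705).

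Neither LXR receptor gene was called. NR1H2, LXR beta, was at 52.1 ± 3.29 and 51.1 ± 2.50 units and NR1H3, LXR alpha, at 5.03 ± 0.305 and 4.95 ± 0.827 units (limma adjusted p = 0.736 and 0.868). Their partner RXRA rose from 56.3 ± 0.727 to 111 ± 1.95 units (limma adjusted p = 1.42e-05) and RXRB by a log2 value of 0.22. The RXRB call ended in 2 of 17 alternatives, among them all libraries at the same total. Of 11 receptors and coregulators, 4 rose and 5 fell (2 and 5 with all libraries at the same total, 2 and 2 without the globin-holding libraries). Among all tested genes 25.8% rose and 22.9% fell. The coactivators NCOA2 and NCOA3 rose by log2 values of 0.63 and 0.25, and the NCOA3 call ended in 6 of 17 alternatives. The acetyltransferase coactivators CREBBP and EP300 and the coactivator NCOA1 fell, with log2 fold changes of -0.85, -0.43 and -0.40.

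Of 14 tested genes on the list of LXR targets, 7 rose and 3 fell (6 and 2 with all libraries at the same total, 10 and 2 without the globin-holding libraries), with a median log2 fold change of 0.49. Leaving out the 4 members, 5 of 10 rose, against 25.8% of all tested genes, and 1 fell, against 22.9%. The lower gene was SMPDL3A, a secreted phosphodiesterase, with a log2 fold change of -0.32 (limma adjusted p = 0.0471). Its call ended in 11 of 17 alternatives, with limma adjusted p from 0.0174 to 0.134. SCD, the stearoyl-CoA desaturase, rose by a log2 value of 3.58 and is also an SREBP target, as is SREBF1. PLTP, the phospholipid transfer protein, named as 1 of the 3 largest rises of the list, rose from 9.44 ± 0.854 to 31.4 ± 1.35 units. LPCAT3, which remodels membrane phospholipids, rose from 12.9 ± 0.464 to 19.0 ± 1.40 units (limma adjusted p = 0.00133). APOE, the apolipoprotein that accepts exported cholesterol, was at 1.53, 3.04 and 19.2 units in parental and 4.17, 13.3 and 4.04 units in sphere libraries, with overlapping groups.

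APOC1, from the same gene cluster as APOE, was at 0, 395 and 99.9 units in parental and 1.36, 1028 and 3.11 units in sphere libraries, high in the same 3 libraries as the globin transcripts. Macrophages, which use ABCA1 and ABCG1 heavily, were checked by 12 markers. Of these, 6 had a value, CD163 and PTPRC not among them, and 2 reached 5 units. Their summed level was 74.6 to 86.1 units in parental and 90.8 to 101.9 units in sphere libraries, mostly CD68, a lysosomal protein that epithelial cells also make, at 64.1 ± 6.88 and 63.5 ± 3.92 units. CD14 rose from 14.2 ± 0.957 to 28.9 ± 0.639 units (limma adjusted p = 8.52e-05). The rest with a value stayed below 5 units and went both ways. CSF1R was at 0.857, 1.01 and 1.90 units in parental libraries and at 0 in all sphere libraries. FCER1G reached 2.89 units in parental replicate 3 and was at 0 in all sphere libraries. TYROBP was at 0 in all parental libraries and reached 3.26 units in sphere replicate 2. ITGAM had means of 0.304 units in parental and 1.06 units in sphere cells. The part of macrophages in the ABCA1 and ABCG1 values was not tested.

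Enzymes of sterol synthesis are the classical targets of SREBP2, and 20 of 22 rose and 0 fell, also with all libraries at the same total and without the globin-holding libraries. Among all tested genes 25.8% rose and 22.9% fell. The median log2 fold change of the sterol synthesis list was 2.01, between the values of SREBF1 and INSIG1. HMGCS1, an early enzyme of the pathway, rose by a log2 value of 2.97. LSS, which closes the sterol rings, rose from 34.2 ± 2.74 to 218 ± 1.29 units. It was named as 1 of the 3 largest rises of the list, so its values are a description. PMVK and LBR, at 36.8 ± 0.791 and 40.2 ± 3.51 units and at 51.9 ± 0.886 and 52.4 ± 1.29 units, were not called.

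Of 7 tested genes for enzymes that make or clear oxysterols or their precursors, 3 rose and 1 fell (2 and 1 with all libraries at the same total, 3 and 0 without the globin-holding libraries), a share called near the 48.7% of all tested genes. CH25H, a cholesterol hydroxylase that makes an LXR ligand, was at 0.941 ± 0.0678 and 1.06 ± 0.0705 units, a single step in every library. SULT2B1, a sterol sulfotransferase, stood at 1.56 ± 0.479 and 2.12 ± 0.135 units and was not called (limma adjusted p = 0.170). CYP7B1, an oxysterol hydroxylase, was listed at 0 in all parental libraries and at 2.07, 2.25 and 1.01 units in sphere libraries. It is among the 3 rises but passed the filter on low values only through the sphere libraries, so its call is a description and supports nothing further. HSD3B7, which acts on hydroxylated sterols in bile acid synthesis, and EPHX1, an epoxide hydrolase, rose by log2 values of 0.91 and 0.81, and the HSD3B7 call ended in 9 of 17 alternatives. NCEH1, a cholesterol ester hydrolase, fell by 0.17 on the log2 scale. That call ended in 4 of 17 alternatives, namely the replicate block and leaving out sphere replicate 2, sphere replicate 3 or the 3 globin-holding libraries.

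**Figure D4:**
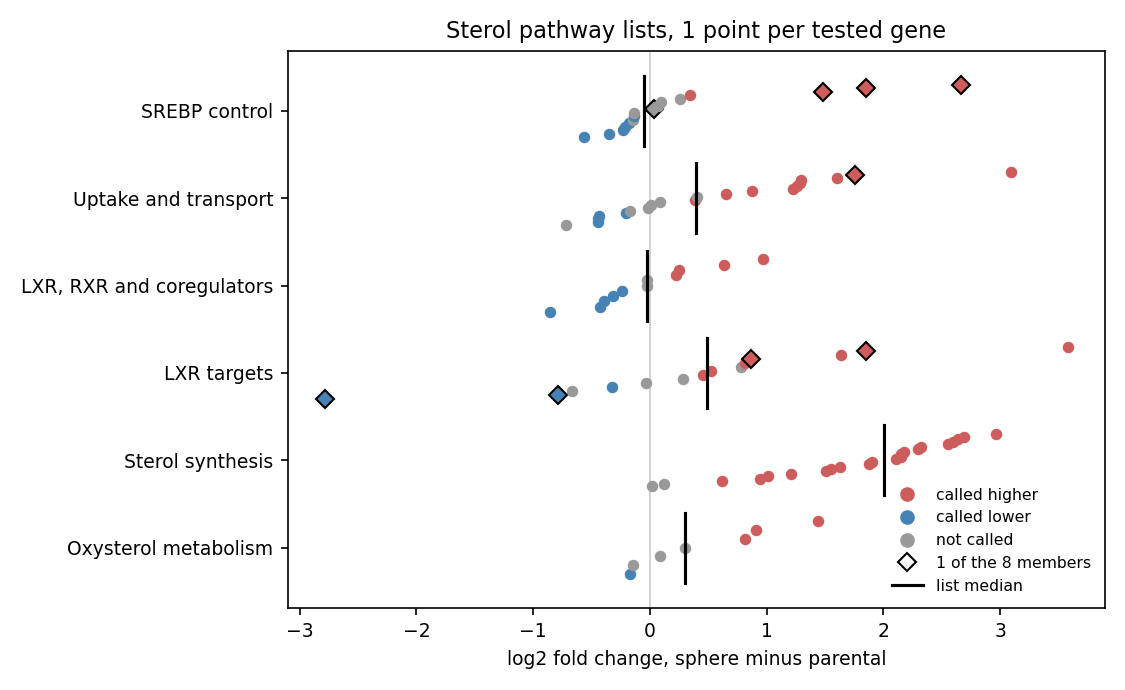
Log2 fold change, sphere minus parental, of each tested gene in 6 sterol pathway lists. Colours give the limma call at an adjusted p below 0.05, diamonds are members and vertical bars are list medians, from -0.05 for SREBP control to 2.01 for sterol synthesis. ABCG1 and ABCA1 are the lowest genes of the LXR target list.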

How the data were processed

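Per the labels' protocols, the 6 libraries were made from total RNA and read from a single end on a BGISEQ platform. The submitters' processing notes list HISAT, Bowtie2 and a mouse build, GRCm38.p6, although all identifiers are human. For quantifier and annotation the entry is: not given in the sources used here. The deposited values are named TPM by the authors and are treated as a normalised signal, because column totals differ between libraries. Of values between 0.5 and 100 steps, 87.2% to 99.8% per library lay within 0.1 of a whole number of steps.

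Genes with 1 unit or more in 3 or more libraries were fitted as log2(value + 1) with limma 3.58.1 in R 4.3.3 (2 groups, mean trend and moderated variances, two-sided, Benjamini-Hochberg adjustment over all tested genes, threshold 0.05). Values below 1e-06 were set to 0. The fit was tested on simulated data. Errors are SDs.

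Members and gene lists were chosen with earlier results of these data known. Genes are named by a rule that took all members, a set of pathway genes and the 3 largest called rises and falls of each list; a few further list genes, and the microRNA-33 sequences, were chosen after their values or the members' values were seen. Some genes this rule picks are not reported here. Promoters and microRNAs are RefSeq sequences on GRCh38.p14 and 3′ UTRs are from GENCODE 29. As alternatives the pseudocount, the filter, the scaling, the trend and the weights were changed, a replicate block was added, and libraries were left out or averaged.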

Additional observations from a re-analysis of the deposited data

How the results depend on the processing

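The 5 members called higher and 2 called lower were called in the same direction under all 17 alternatives, except that a filter of 5 units in 3 libraries left ABCA1 untested and 1 member lower. Only SCAP, which was never called, changed sign: its log2 fold change of 0.03 became -0.12 with each library at the same total and -0.013 after quantile normalisation. At the same total, genes called higher fell from 3875 to 2287 and higher LXR receptor and coregulator genes from 4 to 2.

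Without the 3 libraries with globin transcripts, which leaves 1 parental and 2 sphere libraries and so assumes that the lone library varies like the others, the receptor and coregulator list had 2 higher and 2 lower genes against 4 and 5, SREBP control 1 lower against 6, uptake and transport 2 lower against 4, and oxysterol metabolism 0 lower against 1. The single lower oxysterol gene, NCEH1, was called in some fits without 1 library and not in those without sphere replicate 2 or 3, a range of 0 to 1.

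Replicate numbers are shared by the groups, but deviations of same-numbered libraries correlated at 0.329, 0.121 and -0.273, so the numbers were not taken as pairs. With a replicate block 6176 genes were called against 7315, oxysterol metabolism had 0 lower genes, and the members' calls were the same. The levels of ABCA1 and ABCG1 in sphere cells, 1 to 2 steps, limit the precision of their folds.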
